A study of Homo sapiens with 12 samples.

Results

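The total RNA of wild-type (WT) MCF10A cells after 10 Gy was set against that of mock-treated WT cells. These were 2 of the 12 arrays of the study, 1 array a side, chosen by their labels. Ionising radiation breaks DNA, and a damaged cell answers through the kinases ATM and ATR and the transcription factor p53. p53 induces genes that stop the cell cycle, feed back on p53 itself, repair DNA or start cell death. Cells that stop dividing also lose the mRNAs of DNA replication and mitosis, which depend on E2F factors and on the DREAM repressor complex acting at E2F sites and at the cell cycle gene homology region (CHR) of promoters.

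MCF10A is a mammary epithelial line that does not form tumours and keeps a working p53 response, although the submitters list its origin as breast cancer. The other 10 arrays held WT RNA of light (LMW) and heavy (HMW) polysome pools after 10 Gy and after mock treatment, and the same 6 kinds of sample from eIF4G1 knockdown (KD) cells, in which a doxycycline-inducible short hairpin RNA silenced this scaffold of the cap-binding complex. Cells were irradiated with a linear accelerator. The labels do not state the harvest time after irradiation, the hairpin sequence, or whether WT cells had a control hairpin or doxycycline. Values are linear probe set intensities, and a difference is the log2 value after 10 Gy minus the log2 value after mock treatment. Each gene was read by 1 probe set, and 10157 genes that reached 6 on the log2 scale in 4 or more of the 12 arrays were kept. Values of a gene's other probe sets are given only for those that reached 6 in either WT total RNA array. Of the 10157 genes kept, 9457 reached that level in at least 1 of the 2 WT total RNA arrays and 700 did not.

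No condition was replicated. A difference in WT total RNA therefore has no error and no test, and the count of arrays limits its precision. The p-values given below come from fits that borrow other 10 Gy pairs of the series. In the fit of total RNA, a gene's own spread is the difference of the response between WT and KD cells. In the fit of WT arrays, it is the difference of the response between total RNA, LMW and HMW. In both fits, limma also drew each gene's variance toward a trend over all genes. This trend weighed as 8.62 degrees of freedom against 1 from the gene itself in total RNA, and 13.3 against 2 in WT arrays. Neither fit measures how far repeats of the WT total RNA difference would vary. The labels do not say whether cultures were separate. Array medians lay between 22.6 and 24.4 in all 12 arrays. The EIF4G1 mRNA, the target of the hairpin, read 176 after 10 Gy and 163 after mock treatment in KD total RNA, against 864 and 1028 in WT total RNA, as the labels of the groups imply. The WT polysome pairs stood apart from the other pairs. The SD over genes of the difference was 0.83 in WT LMW and 0.77 in WT HMW, against 0.32 and 0.29 in the KD pools and 0.21 in WT and 0.25 in KD total RNA. Values from WT pools are given with that reservation. Basal epithelial markers were well measured and their summed intensity was 26559 after 10 Gy and 26652 after mock treatment over 6 kept members of 9, among them KRT5 and KRT14. KRT17, TP63 and COL17A1 of that list had no single-symbol probe set. Markers of luminal epithelium summed to 6420.4 after 10 Gy and 6319.2 after mock treatment over 7 kept members of 10. Markers of fibroblasts summed to 2712 after 10 Gy and 2300.1 after mock treatment over 4 kept members of 9. In the leukocyte list only CD14 of 8 measured markers was kept, and in the endothelial list only ENG of 7. In bulk RNA, fewer cells of a type and less RNA per cell cannot be told apart.

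Few genes differed by 2-fold in WT total RNA after 10 Gy. At least 2-fold higher were 8 genes (0.0788% of the genes kept) and at least 2-fold lower was 1 gene (0.00985%). At 1.5-fold, 92 genes were higher (0.906%) and 59 were lower (0.581%). The median difference over all genes was -0.02, and 5% of genes lay under -0.35 and 5% above 0.34. COXFA4L3 was just inside the 2-fold threshold at 1.002 and CSGALNACT1 just outside it at 0.998. At the 1.5-fold threshold, DNAH1 was inside at 0.586 and CBLB outside at 0.583.

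**Figure D1:**
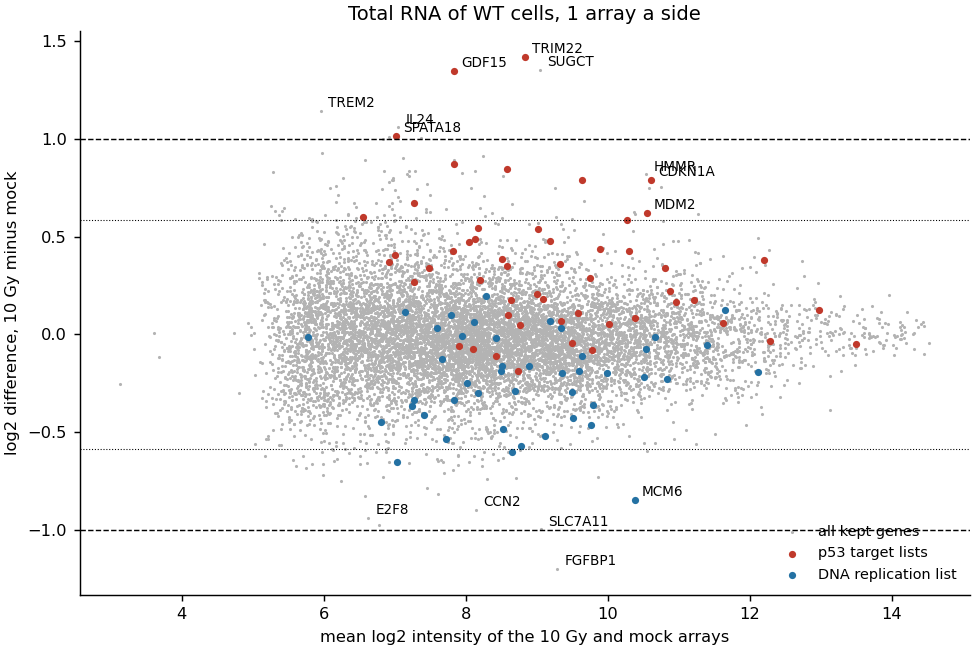
Log2 difference of 10 Gy minus mock treatment (vertical axis) against the mean log2 intensity of both arrays (horizontal axis) for the 10157 kept genes of WT total RNA, with 1 array a side. Dashed lines mark 2-fold and dotted lines 1.5-fold. Red points are members of the p53 target lists and blue points are members of the DNA replication list. TRIM22 is the highest gene at 1.42 and FGFBP1 the lowest at -1.20.

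The highest gene was TRIM22, an E3 ubiquitin ligase known as a target of both p53 and interferon. Its intensity was 743 after 10 Gy and 278 after mock treatment, 2.67-fold higher. SUGCT, a mitochondrial enzyme of glutarate metabolism, read 845 after 10 Gy and 331 after mock treatment, 2.55-fold higher. GDF15, a secreted stress cytokine of the TGF-beta family and a p53 target, read 364 after 10 Gy and 143 after mock treatment, 2.54-fold higher. These 3 genes were well above the filter level in both arrays and were also higher in KD total RNA, by 0.92, 1.00 and 0.76 on the log2 scale. SPATA18, a p53 target that acts in mitochondrial quality control, read 184 after 10 Gy and 91.0 after mock treatment. GASK1B, a Golgi-associated kinase family member, read 172 after 10 Gy and 85.3 after mock treatment. Both were at the 2-fold threshold, with log2 differences of 1.01 and 1.01 in WT and 0.61 and 0.89 in KD total RNA.

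The remaining 3 genes beyond 2-fold lay near the filter level or differed little in KD cells. TREM2, an immune receptor best known from myeloid cells, read 92.3 after 10 Gy and 41.8 after mock treatment in WT, so that its mock value was below the filter level. In KD total RNA it read 55.3 after 10 Gy and 32.6 after mock treatment, below the filter level in both. IL24, a cytokine of the IL-10 family, read 191 after 10 Gy and 92.0 after mock treatment in WT, 2.08-fold higher, and 1179.7 and 1134 in KD total RNA. COXFA4L3, a paralogue of a cytochrome c oxidase subunit, read 234 after 10 Gy and 117 after mock treatment in WT, and 551 and 513 in KD total RNA. For IL24 and COXFA4L3 both KD arrays were above both WT arrays, and the KD difference was 0.057 and 0.10. Next in rank, and under 2-fold, were CSGALNACT1, an enzyme of chondroitin sulfate synthesis (161 after 10 Gy, 80.8 after mock treatment), the adhesion molecule NECTIN4 (86.8 and 45.6), IRAK2, a kinase of interleukin-1 and Toll-like receptor signalling (415 and 220.5), and the secreted matrix protein SMOC1 (190.0 and 102). Each was between 0.90 and 1.00 higher on the log2 scale. None of the 12 highest genes had a further probe set at the filter level that could check its direction.

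The lowest gene was FGFBP1, a secreted protein that releases fibroblast growth factors from the matrix. It read 412 after 10 Gy and 944 after mock treatment, 2.29-fold lower, and in KD total RNA it read 184 after 10 Gy and 411 after mock treatment. The log2 differences of -1.20 in WT and -1.16 in KD were nearly the same. SLC7A11, the cystine-glutamate exchanger that feeds glutathione synthesis, read 379 after 10 Gy and 755 after mock treatment, 1.99-fold lower, and its other probe set gave -0.97 on the log2 scale. MCM6, a subunit of the replicative helicase, read 993 after 10 Gy and 1782 after mock treatment, 1.79-fold lower. In KD total RNA, MCM6 read 277 after 10 Gy and 632 after mock treatment. Both KD arrays lay below both WT arrays for this gene. CCN2, a matricellular protein and classical target of YAP and TGF-beta signalling, read 207 after 10 Gy and 385 after mock treatment in WT, and 219.6 and 231 in KD total RNA. SERPINB3, a protease inhibitor of squamous epithelium, read 326 after 10 Gy and 541 after mock treatment. Its other probe set gave -0.73, but a near-identical neighbouring gene means that such probes may read both copies.

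Other members of the 12 lowest were E2F8, an E2F family repressor (71.6 after 10 Gy, 137 after mock treatment), the receptor PEAR1 (78.4 and 154), JPH1, which ties the plasma membrane to internal calcium stores (147 and 258), the imprinted retrotransposon-derived gene PEG10 (134 and 231) and the homeobox factor HOXB2 (58.5 and 98.2). For a pair of the lowest genes the probe sets disagreed in size or direction. BCL9L, a co-activator of beta-catenin, was at -0.83 by its main probe set and at 0.42 by the other. SRGAP1 was at -0.74 by its main probe set and at -0.15 by the other.

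**Figure D2:**
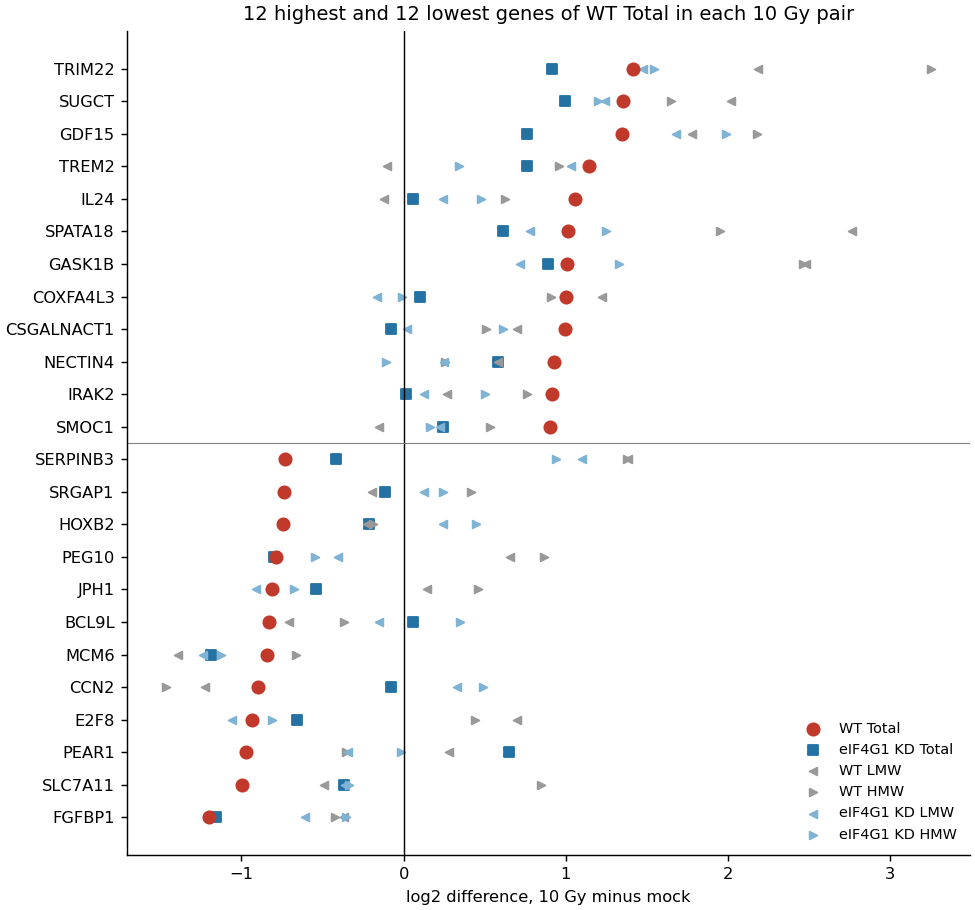
Log2 difference of 10 Gy minus mock treatment (horizontal axis) in WT total RNA (red circles), eIF4G1 KD total RNA (blue squares), WT polysome pools (grey triangles) and KD polysome pools (light blue triangles) for the 12 highest and 12 lowest genes of WT total RNA, 1 array a side in every pair. In KD total RNA, 11 of the 12 highest genes are above 0 and 10 of the 12 lowest are below 0.

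The KD total RNA arrays did not enter the difference by which these genes were ranked. Of the 92 genes at least 1.5-fold higher in WT, 73 (79.3%) were above 0 in KD total RNA, whereas 40.9% of all kept genes were. At least 1.5-fold higher in KD were 17 of the 92, beside 45 genes (0.443%) of all. Of the 59 genes at least 1.5-fold lower in WT, 48 (81.4%) were below 0 in KD, whereas 59.1% of all kept genes were, and 14 were at least 1.5-fold lower in KD, beside 279 (2.75%) of all. Further probe sets of the same genes shared the 2 arrays and are no replicate. For the higher genes, 41 of 41 such probe sets, of 22 genes, went the same way, and for the lower genes 11 of 13, of 11 genes. Over all kept genes 4278 of 6327 did. At least 1.5-fold in the same direction were 25 of the 41 and 4 of the 13, beside 171 of the 6327.

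The 4 total RNA arrays allowed a test of 10 Gy over both genotypes, with the genotype as a block and 1 residual degree of freedom (limma, Benjamini-Hochberg at 0.05). It called 13 genes higher (0.128%) and 5 lower (0.0492%), and 1305 genes had an unadjusted p under 0.05. Those that rose included 5 of the 32 kept p53 targets of arrest and feedback, a list chosen with earlier results of these data known. CDKN1A, which encodes the CDK inhibitor p21, rose by 0.76 ± 0.079 on the log2 scale (SE, adjusted p = 0.00999). MDM2, the ubiquitin ligase that degrades p53, rose by 0.62 ± 0.083 (adjusted p = 0.0260). TP53INP1, a p53-induced nuclear protein, rose by 0.86 ± 0.10 (adjusted p = 0.0167). TRIM22 and GDF15 rose by 1.17 and 1.05 (adjusted p = 0.0119 and 0.0274). Outside that list, SUGCT, GASK1B and the histone genes H2AC6 and H2BC5 rose, with adjusted p of 0.00997, 0.0243, 0.0231 and 0.0469.

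The genes that fell in that test were FGFBP1 at -1.18 ± 0.10 (adjusted p = 0.00656), MCM6 at -1.02 ± 0.11 (adjusted p = 0.0119), PEG10 at -0.79 ± 0.12 (adjusted p = 0.0483), H2AX at -0.71 ± 0.10 (adjusted p = 0.0324) and TRMT5, a tRNA methyltransferase, at -0.51 ± 0.077 (adjusted p = 0.0469). H2AX encodes the histone variant that is phosphorylated around DNA breaks. Of the genes called, 7 lost the call and 5 kept it when the median of all probe sets stood for a gene, and the rest were then below the filter. The lost calls included H2AX, at -0.16 (adjusted p = 0.771), MCM6, at -0.78 (adjusted p = 0.0873), and TRMT5, at -0.35 (adjusted p = 0.226). TRMT5 and 4 of the genes that rose were named only after their values were seen. Those 4 were GM2A, a lysosomal lipid-binding protein (2149.8 after 10 Gy and 1441 after mock treatment in WT), CLCA2, a p53-inducible surface protein of basal epithelium (1658 and 1081), the extracellular sulfatase SULF2 (312 and 168) and the death-associated kinase DAPK1 (171 and 107). Limma called 0 genes without the variance trend (1146 at an unadjusted p under 0.05) and 0 without the genotype block (48 at that level), and a loess correction of each difference gave 61 higher and 71 lower.

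The WT arrays alone, with the preparation as a block over 3 pairs (2 residual degrees of freedom, limma), gave 11 higher genes (0.108%) and 0 lower (0%), with 2412 genes at an unadjusted p under 0.05. The 11 were TRIM22, GDF15, GASK1B, SUGCT, SPATA18, TP53INP1 and MDM2, the cytokine genes IL1B and CXCL8, INHBA, a subunit of the secreted factor activin, and PAG1, a membrane adaptor for Src family kinases that was named after its values were seen. Each had an adjusted p of 0.0347 (limma). Total RNA, LMW and HMW are not repeats of each other, and 2 of the 3 pairs were the WT pools that stood apart. The count rested on the settings and on which pairs were used. It was 0 with the median of probe sets, without those ending in _x_at or _s_at, without the variance trend and without the block. In these settings 1765, 1626, 2198 and 114 genes had an unadjusted p under 0.05 (limma). The count was 37 higher and 0 lower without the LMW pair and 20 higher and 1 lower without the HMW pair. Of the 11 genes, 3 lost the call without the LMW pair (CXCL8, SPATA18 and SUGCT) and 6 without the HMW pair (CXCL8, GDF15, IL1B, SUGCT, TP53INP1 and TRIM22). The pools alone, without the total RNA pair, gave 2671 higher and 1533 lower.

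The p53 target lists, like all lists here, were chosen with earlier results of these data known, and they leaned upward. Of the 32 kept targets of arrest, feedback and metabolism, 27 were above 0 and 0 were at least 1.5-fold lower. At least 1.5-fold higher were 9, and at least 2-fold higher were 3. Over all 10157 genes kept, 4656 were above 0, 59 were at least 1.5-fold lower, 92 at least 1.5-fold higher and 8 at least 2-fold higher. The median difference of the list was 0.42 in WT and 0.21 in KD total RNA, beside -0.02 and -0.04 over all genes. CDKN1A read 2047 after 10 Gy and 1184 after mock treatment in WT, 1.73-fold higher, and 4248 and 2558 in KD total RNA. Both KD arrays lay above the WT array after 10 Gy. MDM2 read 1860.5 after 10 Gy and 1209 after mock treatment in WT, 1.54-fold higher, and 2514 and 1627 in KD total RNA. Its other 4 probe sets were all positive but ran from 0.14 to 1.51 on the log2 scale, so the size depends on the probe set. TP53INP1 read 514 after 10 Gy and 286 after mock treatment in WT, and 756 and 414 in KD total RNA. The log2 differences of TP53INP1, CDKN1A and MDM2 were close in both genotypes, at 0.85, 0.79 and 0.62 in WT and 0.87, 0.73 and 0.63 in KD.

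Several other members of the list were past or near 1.5-fold. NINJ1, which acts in plasma membrane rupture of dying cells, read 308 after 10 Gy and 169 after mock treatment. The keratinocyte lipid transporter ABCA12 read 194 after 10 Gy and 122 after mock treatment, and SYTL1, a vesicle transport protein, read 116 and 76.4. Of the stress-induced sestrins, which restrain mTORC1, SESN1 was at 0.55 and SESN2 at 0.41. CCNG2, an unconventional cyclin of arrested cells, was at 0.58, the glycolysis regulator TIGAR at 0.44 and the RNA-binding protein ZMAT3 at 0.43. GADD45A was at 0.29 and the phosphatase gene PPM1D at 0.28, both under 1.5-fold. Some well-known targets hardly differed. CCNG1 was at 0.061, SFN, which encodes the checkpoint protein 14-3-3 sigma, at -0.046 and the kinase gene PLK2 at -0.044. PLK2 was at 0.68 in KD total RNA.

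Of 13 kept p53 targets of apoptosis, 12 were above 0 (4656 of all 10157 genes kept) and 0 reached 1.5-fold in either direction. The median was 0.17 in WT and 0.23 in KD total RNA. PMAIP1, which encodes the BH3-only protein NOXA, was highest and read 624 after 10 Gy and 429 after mock treatment, 1.45-fold higher. The death receptor FAS was at 0.36 and the pore-forming protein BAX at 0.35 on the log2 scale, and BAX was at -0.17 in KD. Of the 7 kept repair targets the median was 0.34. DDB2, which recognises ultraviolet lesions, read 1043 after 10 Gy and 604 after mock treatment, 1.73-fold higher, and was the only member of that list past 1.5-fold. RRM2B, a ribonucleotide reductase subunit, was at 0.48, XPC at 0.39 and the translesion polymerase POLH at 0.34. PCNA, the polymerase clamp, was at -0.033.

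**Figure D3:**
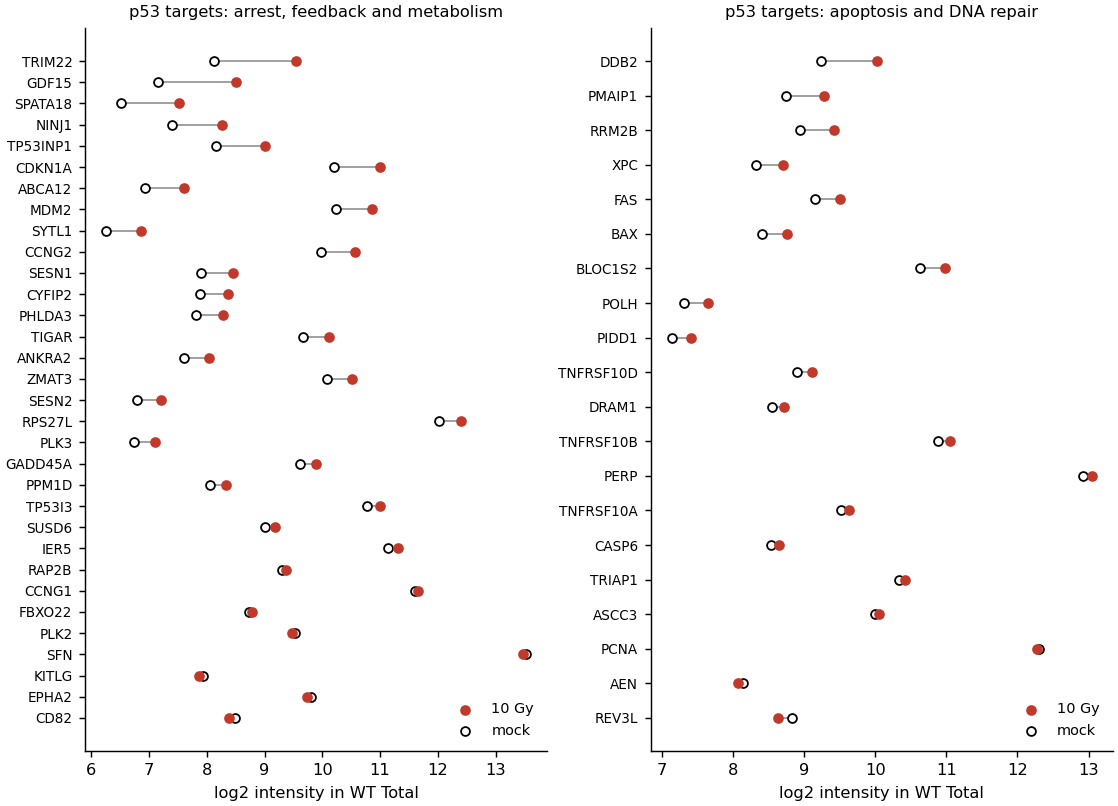
Log2 intensity in WT total RNA (horizontal axis) after 10 Gy (red) and after mock treatment (open circles) for the 32 kept p53 targets of arrest, feedback and metabolism (left) and the kept targets of apoptosis and DNA repair (right), 1 array each, ordered by difference. In the left panel the red point lies to the right of the open one for 27 genes.

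The DNA replication list pointed the other way. Its 45 kept members had a median of -0.20 beside -0.02 over all genes. Of these members, 37 were below 0 and 3 were at least 1.5-fold lower, beside 5498 and 59 of all 10157 genes kept. Beside MCM6, the 3 lower members were POLA1, the catalytic subunit of the polymerase that primes replication, and MCM10, which activates the helicase. POLA1 read 105 after 10 Gy and 164 after mock treatment in WT, and 43.8 and 73.9 in KD total RNA. MCM10 read 327 after 10 Gy and 496 after mock treatment in WT, and 56.2 and 194 in KD total RNA. In KD cells the same list had a median of -0.81, with 32 members at least 1.5-fold lower beside 279 (2.75%) of all genes. On the scale of differences, 44 of 45 members were higher in WT than in KD, beside 5699 of all 10157 genes kept. Among cyclins and their regulators, with a median of -0.11 over 24 genes, E2F8 and CCNE2 were past 1.5-fold. CCNE2, the cyclin that opens S phase with CDK2, read 237 after 10 Gy and 378 after mock treatment in WT, and 43.2 and 119 in KD total RNA.

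The mitosis list hardly differed in WT total RNA. Its 53 kept members had a median of -0.023, 22 were above 0 and 31 below, and 0 were at least 1.5-fold lower. Over all 10157 genes kept, these counts were 4656, 5498 and 59. In KD total RNA the list median was -1.11, and 48 members were at least 1.5-fold lower, beside 279 (2.75%) of all genes. On the scale of differences, 52 of 53 members were higher in WT than in KD, beside 5699 of all genes. The median over members of the WT difference minus the KD difference was 1.08, beside 0.03 over all genes, and with 1 array a side this contrast of genotypes was not tested. MKI67, the proliferation marker, read 624 after 10 Gy and 845 after mock treatment in WT, and 84.7 and 205 in KD total RNA. Its other 3 probe sets lay between -0.78 and -0.50 in WT. HMMR, a spindle and hyaluronan-binding protein, was the only member past 1.5-fold in WT and was higher after irradiation, at 1974 after 10 Gy and 1119.6 after mock treatment, whereas KD total RNA read 287 and 643. Homologous recombination and Fanconi genes were likewise higher in WT than in KD on that scale, with a median of -0.15 in WT and -0.88 in KD over 23 genes. EXO1, the nuclease that resects breaks, was the only one of them at least 1.5-fold lower in WT, with 210.4 after 10 Gy and 330.1 after mock treatment.

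Promoters of genes from the replication and mitosis lists are shown because their members are known to carry different cell cycle elements. Whether these elements bear on the differences of the lists was not tested. The sequences are the 250 bases before the RefSeq start (GRCh38.p14), written 5′ to 3′ on the gene's strand. Capitals mark matches, on either strand, to the E2F letters TTTCCCGC or TTTGGCGC in MCM6 and POLA1 and to the CHR letters TTTGAA in HMMR and MKI67. The MCM6 window is chr2:135876444-135876693 on the minus strand, POLA1 is chrX:24693668-24693917 on the plus strand, HMMR is chr5:163460382-163460631 on the plus strand and MKI67 is chr10:128126424-128126673 on the minus strand.
MCM6: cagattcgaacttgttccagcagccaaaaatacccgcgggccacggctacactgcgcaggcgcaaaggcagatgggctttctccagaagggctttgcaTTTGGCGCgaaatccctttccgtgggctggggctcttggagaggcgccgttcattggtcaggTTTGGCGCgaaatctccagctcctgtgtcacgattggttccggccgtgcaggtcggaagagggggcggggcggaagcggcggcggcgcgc
POLA1: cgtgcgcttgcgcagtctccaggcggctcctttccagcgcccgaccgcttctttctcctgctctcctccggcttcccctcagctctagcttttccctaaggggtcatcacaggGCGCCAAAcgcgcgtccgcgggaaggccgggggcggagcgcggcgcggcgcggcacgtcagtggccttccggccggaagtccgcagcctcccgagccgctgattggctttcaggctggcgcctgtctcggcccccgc
HMMR: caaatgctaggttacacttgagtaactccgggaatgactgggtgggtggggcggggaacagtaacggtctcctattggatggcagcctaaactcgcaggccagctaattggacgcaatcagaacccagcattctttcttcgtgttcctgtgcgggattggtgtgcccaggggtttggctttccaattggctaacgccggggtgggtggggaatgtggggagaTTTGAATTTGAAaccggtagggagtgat
MKI67: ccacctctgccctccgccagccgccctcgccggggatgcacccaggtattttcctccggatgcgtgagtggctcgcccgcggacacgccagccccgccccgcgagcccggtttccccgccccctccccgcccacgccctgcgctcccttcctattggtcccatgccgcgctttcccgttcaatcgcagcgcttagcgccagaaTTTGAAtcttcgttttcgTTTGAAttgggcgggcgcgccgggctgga

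MCM6 held 2 E2F matches, 152 and 90 bases before the start, and POLA1 held 1 match, in the reverse direction as GCGCCAAA, 137 bases before it. HMMR held 2 adjoining CHR matches, 28 and 22 bases before the start, and MKI67 held 2, at 47 and 29 bases. Over windows of 300 bases around the start, which add the first 50 transcribed bases, the E2F letters occurred in 16 of 39 replication promoters (41.0%), beside 319 of 8409 (3.79%) for all kept genes with a RefSeq window. The CHR letters occurred in 33 of 45 mitosis promoters (73.3%), beside 791 of 8409 (9.41%). The motifs did not mark the genes past 1.5-fold as a whole. E2F letters were in 2 of 47 promoters of the lower genes and 1 of 70 of the higher ones, and CHR letters in 5 of 47 and 8 of 70. A p53 half-site, searched by its consensus in the same windows, was in 4 of 27 promoters of p53 arrest targets (14.8%). It was in 1 of 10 promoters of p53 apoptosis targets and 0 of 5 of p53 repair targets, beside 437 of 8409 (5.20%) for all. Among genes past 1.5-fold, the half-site was in 5 of 70 promoters of the higher genes (7.14%) and 5 of 47 of the lower ones (10.6%). A match describes the letters in the window and does not show that a factor binds there. Sites outside the windows were not searched, so a window without a match does not show that a gene lacks a site.

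Histone genes lay on both sides of 0. Of 11 kept members of 35, 5 were above 0 and all of these were clustered histone genes. The median was -0.026, and 0.43 when the median of all probe sets stood for a gene. H2AC6 read 153 after 10 Gy and 86.0 after mock treatment in WT, and 315 and 154 in KD total RNA. H2BC5 read 159 after 10 Gy and 92.8 after mock treatment in WT, and 197 and 115 in KD. H2BC12, H1-2 and H2BC6 were at 0.49, 0.48 and 0.43 on the log2 scale. The labelling kit primes from poly(A) tails, which most clustered histone mRNAs lack in dividing cells, and near-identical copies may share probes, so single histone values are uncertain. In the WT pools H1-2 and H2BC6 went the other way, at -1.93 and -0.59 in LMW and -1.06 and -1.26 in HMW. The kept histone genes outside the clusters were all below 0. H2AX read 1227 after 10 Gy and 1851 after mock treatment in WT, and 487 and 866 in KD total RNA. The linker histone gene H1-10 was at -0.55, H2AZ2 at -0.28, MACROH2A1 at -0.09, H2AZ1 at -0.04 and H3-3A at -0.026.

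Of the 14 kept cytokines and chemokines, 14 were above 0 in WT total RNA, beside 4656 of the 10157 genes kept. Their median was 0.24 in WT and 0.041 in KD total RNA. The other 11 measured members did not pass the filter, and the WT median over all 25 was 0.12. Besides IL24, only CXCL8, the neutrophil chemokine interleukin-8, was at least 1.5-fold higher. CXCL8 read 2229.7 after 10 Gy and 1325 after mock treatment in WT, and 736 and 869.6 in KD total RNA, where it was lower after 10 Gy. Its other probe set in WT gave 0.63. CXCL3 read 429 after 10 Gy and 289 after mock treatment, and the inflammasome product IL1B read 5249 and 3736. CXCL1, CXCL2 and CXCL3 are close paralogues whose probes may not be specific. CXCL1 was at 0.32, CXCL2 at 0.05 and IL6 at 0.12. The senescence secretome list, which shares GDF15 and CXCL8, had 4 of 13 members at least 1.5-fold higher and 1 lower, beside 0.906% and 0.581% of all genes. The other 2 higher members were STC1, a secreted glycoprotein (228 after 10 Gy, 134 after mock treatment), and INHBA (3047 and 1987). The lower member was LMNB1, a nuclear lamina protein that is not secreted and whose loss is a known mark of senescent cells (161 and 250.3). Whether the cells were senescent was not tested. In KD total RNA, 1 member of that list was at least 1.5-fold higher and 2 were lower, beside 0.443% and 2.75% of all genes.

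Immediate-early genes had a median of 0.10 over 29 kept members. KLF4, a zinc-finger factor that p53 can induce, was the only one at least 1.5-fold higher and read 231 after 10 Gy and 141 after mock treatment in WT, and 483 and 347 in KD total RNA. CCN2 was the only one at least 1.5-fold lower. EGR1 was at 0.27, FOS at 0.075, JUN at 0.10 and MYC at -0.33 on the log2 scale. Of the 22 kept integrated stress response genes, 7 were above 0, beside 4656 of the 10157 genes kept, and the median was -0.074. The lowest 3 were SLC7A11, PHGDH and ASNS. In WT total RNA, the serine synthesis enzyme PHGDH read 157 after 10 Gy and 245 after mock treatment, and asparagine synthetase, ASNS, read 187 and 274. The highest 3 were the stress factors NUPR1, ATF3 and DDIT3, at 0.48, 0.46 and 0.44.

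**Figure D4:**
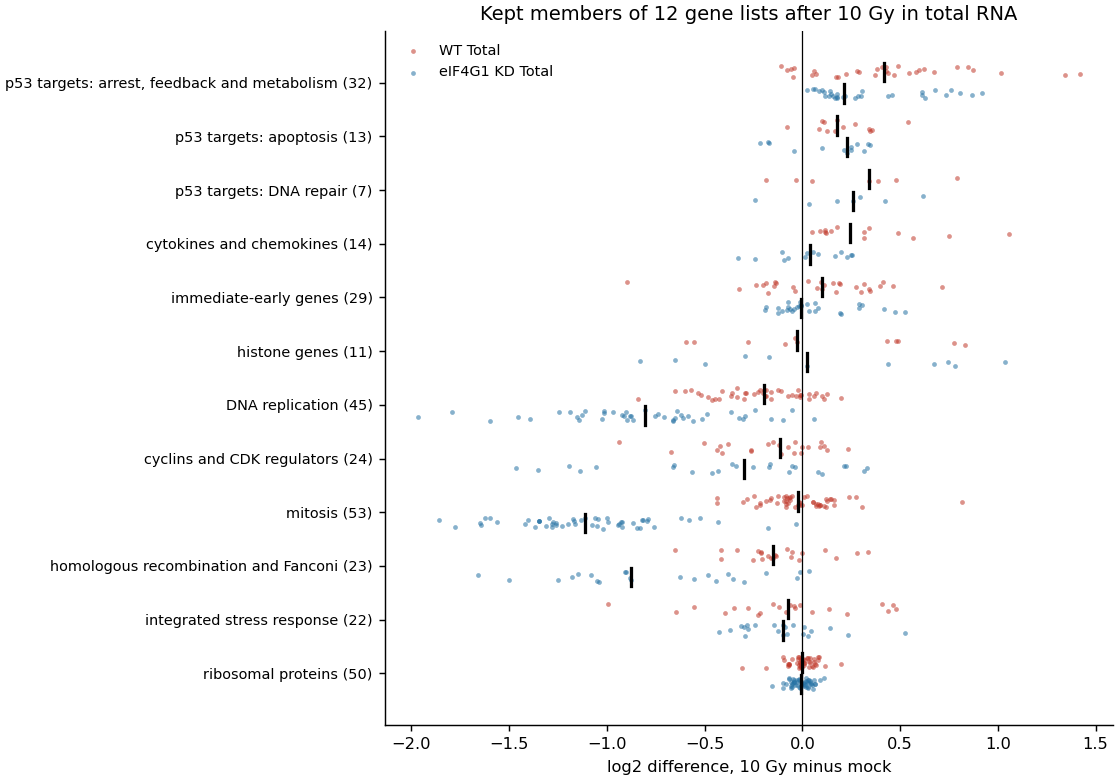
Log2 difference of 10 Gy minus mock treatment (horizontal axis) of the kept members of 12 gene lists (number of members in brackets) in WT total RNA (red, above) and eIF4G1 KD total RNA (blue, below), 1 array a side. Each point is a gene and each black bar the median of the list. The mitosis list has its median at -0.02 in WT and -1.11 in KD, whereas p53 arrest targets are at 0.42 and 0.21.

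Ribosomal protein and mitochondrial transcripts had medians near 0. The 50 ribosomal protein genes had a median of -0.0045, with a range from -0.31 to 0.20, and the 7 mitochondrially encoded genes a median of 0.038. Damage kinases and checkpoint mediators were at a median of -0.15 over 21 genes. H2AX was the only one of them past 1.5-fold, ATM was at 0.20 and NBN, a subunit of the break-sensing MRN complex, at -0.48. The BCL2 family was at 0.037 over 15 genes, end joining at -0.10 over 12, and excision and mismatch repair at -0.14 over 25, of which DDB2 was past 1.5-fold. The list of interferon-stimulated genes had a median of 0.16 in WT and -0.12 in KD over 21 genes. In WT, 0 of these listed genes were past 1.5-fold, and IFIT3 was highest at 0.54. TRIM22, also a target of interferon, was at 1.42 but was counted with the p53 targets of arrest and not in this list.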

How the data were processed

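RNA of 12 MCF10A samples was measured on oligonucleotide arrays. The authors deposited linear probe set intensities, made with RMA per the submitters' processing notes. Those notes name no RMA version and do not state whether RMA was run on all 12 arrays at once. Intensities were turned to log2.

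Of 54675 probe sets, 41097 with a single gene symbol in the platform annotation were used, 1801 with several symbols and 11777 not listed were left out. The probe set with the highest mean over 12 arrays stood for each of 19775 genes. Genes that reached 6 on the log2 scale in 4 or more arrays were kept (10157).

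WT total RNA was described by its difference and by counts at 2-fold and 1.5-fold. Tests used limma 3.58.1 in R 4.3.3 (eBayes with a trend, Benjamini-Hochberg at 0.05) on 4 total RNA arrays with genotype as block, and on 6 WT arrays with preparation as block. The scripts were tested on simulated data. Named genes were the 12 highest and 12 lowest by difference (higher array at 6 or more), EIF4G1, up to 3 highest and 3 lowest of each list, every p53, immediate-early, histone and cytokine member, and genes in opposite directions between genotypes. No gene passed 2-fold in opposite directions, and genes named outside the rule are marked as such. The members and the 38 lists were chosen with earlier results of these data known. Promoters are RefSeq windows (GRCh38.p14), the first listed per symbol. Alternatives were other filters, the median of probe sets, no _x_at or _s_at probe sets, a loess correction, no trend, no block, and omitted pairs. One, the probe set and filter taken from the 4 total RNA arrays, was chosen after seeing the data.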

Additional observations from a re-analysis of the deposited data

Results flagged for a closer look

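For 2 genes, the difference after 10 Gy in total RNA was past 1.5-fold in opposite directions in WT and KD cells. This was 1 pair of arrays against 1 pair, and the contrast of genotypes was not tested. HMMR was at 0.82 in WT and -1.16 in KD total RNA on the log2 scale. In the pools it was at 0.57 and 2.04 in WT LMW and HMW, and at -0.38 and -0.23 in KD LMW and HMW, and its other probe set was at 0.73 in WT total RNA. Among the mitosis genes next in rank, the checkpoint kinase TTK was at 0.31 in WT and -1.17 in KD, and the kinesin KIF20B at 0.27 and -0.62.

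PEAR1 was at -0.97 in WT and 0.65 in KD total RNA. Its intensity was 78.4 after 10 Gy and 154 after mock treatment in WT, and 232 and 148 in KD. The pools gave 0.28 and -0.36 in WT LMW and HMW and -0.34 and -0.013 in KD LMW and HMW. No further probe set of PEAR1 reached the filter level.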

How the results depend on the processing

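The labels carry no replicate numbers, so no fit was paired by them, and the blocks used were the genotype and the preparation. With no filter, WT total RNA had 24 genes at least 2-fold higher and 3 lower, and 237 and 139 at 1.5-fold. A filter at 7 gave 53 and 36 at 1.5-fold, and the median of probe sets gave 60 higher at 1.5-fold and 2 lower at 2-fold. List medians kept within the spread of their members except for histones (0.43 with the median of probe sets), fibroblast markers (-0.053 with that median, -0.28 without probe sets ending in _x_at or _s_at), leukocyte markers (-0.0015 with no filter) and endothelial markers (0.079 with the median of probe sets). For single genes, the alternatives were run on the 35 that were among the 12 highest, the 12 lowest or the calls over both genotypes. Of these, BCL9L, H2AX, MDM2, SRGAP1 and TRMT5 moved in WT total RNA, all through the choice of probe set, and none changed sign under an alternative that kept it. In the fit over both genotypes the genes higher were 21 with a filter at 7 and 5 with the median of probe sets. They were 4 without probe sets ending in _x_at or _s_at, which left 7248 genes. Loess gave 61 higher, and no trend or no block gave 0. The genes lower were 20 with no filter, 25 with a filter at 7 and 1 with the median. They were 2 without probe sets ending in _x_at or _s_at and 3 with the probe set and filter of the 4 total RNA arrays. Loess gave 71 lower, and no trend or no block gave 0. In the fit over WT preparations, higher and lower genes were 232 and 18 with no filter, 800 and 117 with loess, 2671 and 1533 without the total RNA pair, 37 and 0 without the LMW pair and 20 and 1 without the HMW pair. A filter at 7 gave 6 higher. The median of probe sets, leaving out those ending in _x_at or _s_at, no trend and no block gave 0. In these settings 1765, 1626, 2198 and 114 genes had an unadjusted p under 0.05 (limma). The cause of these changes was not tested. Dim genes, near 6 on the log2 scale, are the least certain.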

Other observations

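Several groups outside the damage response also had members away from 0 in WT total RNA. MALAT1, a nuclear long non-coding RNA, read 1985 after 10 Gy and 1180.5 after mock treatment in WT, and 3006 and 2416 in KD total RNA, and all of its 8 other probe sets were higher in WT, by 0.31 to 1.63 on the log2 scale. SR splicing factors and CLK kinases had a median of -0.15 over 16 genes, with the splicing factor SRSF7 lowest at 2457 after 10 Gy and 3495 after mock treatment. Its other 2 probe sets gave -0.49 and -0.36, whereas those of SRSF1, at -0.41, ran from -0.79 to 0.24. Genes of MYC and polyamine synthesis had a median of -0.18 over 17 genes.

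Among surface and matrix genes, COL7A1, the collagen of anchoring fibrils, read 787 after 10 Gy and 533 after mock treatment, and the collagen receptor subunit ITGA2 read 1572 and 1089. ERRFI1, a feedback inhibitor of the EGF receptor, read 1168 after 10 Gy and 818 after mock treatment in WT, and 447 and 470.3 in KD total RNA. INSIG1, a sterol sensor that restrains SREBP, read 456 and 652 in WT, and the hexokinase HK2 read 450.1 and 643, although the other probe set of HK2 was at 0.062. None of these genes was called in either limma fit.

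The 4 kept fibroblast markers, COL1A1, DCN, FAP and PDGFRB, were at 0.55, 0.39, 0.048 and -0.28 in WT total RNA, with a median of 0.22 that was -0.053 with the median of probe sets. DCN read 1487 after 10 Gy and 1134 after mock treatment in WT, and 122 and 132 in KD total RNA. Their part in any of the differences above was not tested.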
